A study of Mus musculus with 12 samples.

Results

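Insulin signaling was followed in inguinal white adipose tissue (iWAT) of mice through 6 genes: Insr, Irs1, Irs2, Pik3r1, Akt2 and Foxo1. They were taken by name from the table of normalized counts, in which all 6 of 6 were listed among 14159 genes, and all 6 passed the filter of a mean of at least 10 normalized counts that left 13404 genes for testing. Atf4AKO mice carried floxed Atf4 alleles and a Cre transgene driven by the adiponectin (Adipoq) promoter, which deletes Atf4 in adipocytes and leaves it in the other cells of the tissue. Their floxed littermates without Cre served as controls (Atf4WT), and all mice were on a C57BL/6 background. Each genotype was kept at room temperature (RT) or exposed to cold for 24 h, which gave 4 groups of 3 biological replicates. The age of the sequenced mice is not given in the sources used here.

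Insulin binds a receptor tyrosine kinase on the adipocyte surface, encoded by Insr, which phosphorylates the insulin receptor substrates IRS1 and IRS2. These recruit phosphoinositide 3-kinase through its regulatory subunit p85α, the product of Pik3r1, and the lipid made by the kinase brings AKT2, the main insulin-responsive AKT of fat cells, to the membrane. AKT2 drives glucose transporter movement and lipid synthesis, and it phosphorylates FOXO1, a transcription factor of the fasted state, so that FOXO1 leaves the nucleus. Cold exposure raises glucose uptake and lipid turnover in this fat depot.

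The libraries held 25719476 to 29105147 reads in the listed genes. Atf4 itself lay at 4107 to 5669 normalized counts in Atf4WT iWAT at RT and at 5756 to 7644 after cold, against 1470 to 1639 and 788 to 1578 in Atf4AKO iWAT, so each library matched its genotype label. Adipocyte markers were high in each library, with a mean log2 level between 15.69 and 16.27 over 9 genes. The 22 lymphocyte markers differed between groups: their mean log2 level was 7.29 to 9.83 in the Atf4WT cold libraries, against 3.94 to 7.10 in Atf4WT RT, 4.27 to 5.36 in Atf4AKO RT and 3.59 to 5.31 in Atf4AKO cold. Muscle markers (4 genes) were at a mean log2 level of 12.3 in Atf4WT RT replicate 2 and 10.8 in Atf4WT cold replicate 0. They were at 7.69 in Atf4AKO cold replicate 1 and at 3.92 to 5.28 in the other libraries. The part of muscle in the values below was not tested. In whole tissue, fewer cells of a type and less RNA per cell cannot be told apart, and this applies to each gene below.

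Per kb of annotated exon, Akt2 had the highest level, with a mean of 2209 normalized counts per kb over the 12 libraries, and Pik3r1 came next with 959. Foxo1 (360), Insr (349) and Irs1 (337) followed on the same scale, and Irs2 was lowest with 255. Akt2 exceeded Pik3r1, and Pik3r1 exceeded Foxo1, in 12 of 12 libraries. The order from Foxo1 down was not kept: Foxo1 was above Insr in 7 of 12 libraries, Insr above Irs1 in 6 and Irs1 above Irs2 in 9. Each member was read deeply, from 678 reads for Irs2 in its lowest library to 20931 for Akt2 in its highest, and counting alone gives an error of at most 3.84%.

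**Figure D1:**
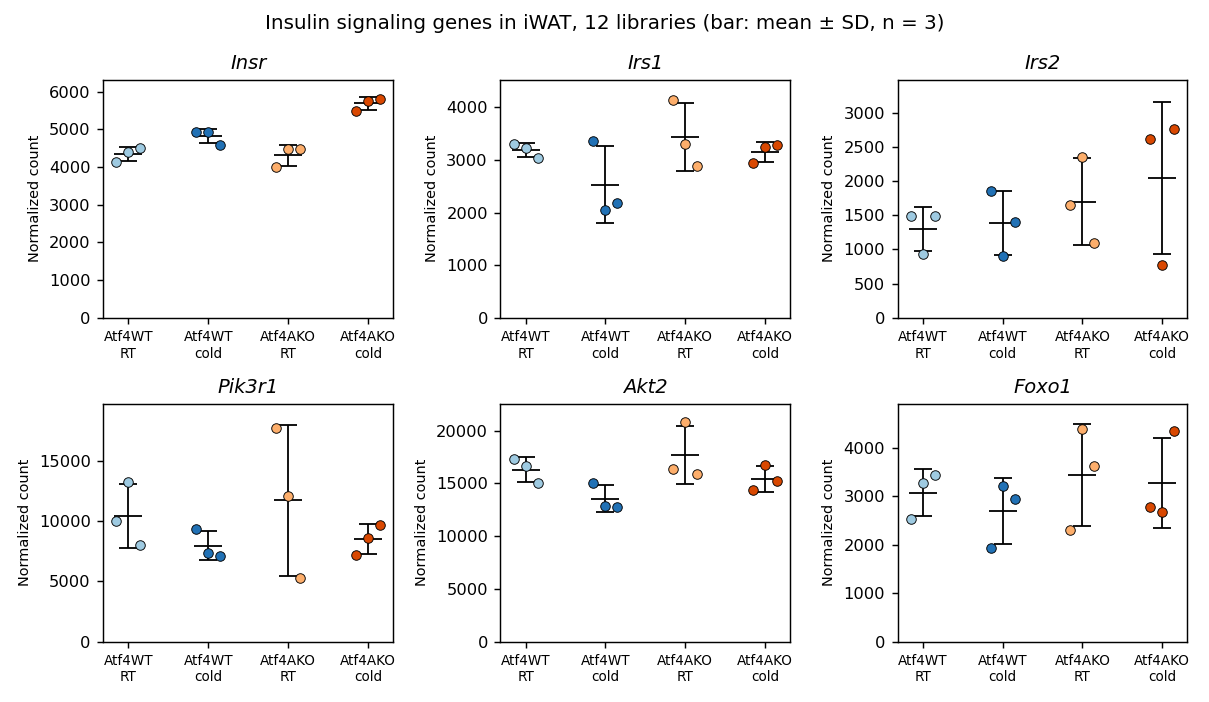
Normalized counts (y axis, linear from 0) of the 6 insulin signaling genes in each of the 12 libraries, by group on the x axis; points are libraries, and bars are the mean and SD of 3 libraries. The 3 Atf4AKO cold libraries of Insr, at 5499 to 5818, sit above the other 9, while the groups of the other 5 genes overlap with wide bars for Irs2 and Pik3r1.

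The members differed most in how much replicates of a group varied. Insr had a within-group SD of 0.07 on the log2 scale, lower than all but 2.49% of the genes tested. Akt2 followed with 0.15 and Irs1 with 0.24, around the median of 0.19 over all genes tested. Foxo1 (0.38), Pik3r1 (0.51) and Irs2 (0.67) varied more, and the SD of Irs2 was above that of 91.7% of the genes tested.

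The promoters of the members were read for short motifs, since FOXO and ATF4 are both transcription factors with known sites. RefSeq promoter sequences (GRCm38.p6) were at hand for Irs1, Irs2, Akt2, Pik3r1 and Foxo1 and not for Insr, and the 250 bases before each start were searched on both strands. The FOXO site TGTTTAC was in none of the windows, and it is in 3.17% of all 32851 promoters. The E-box CACGTG, in 6.02% of all promoters, was found once upstream of each of the IRS genes, and the TGACG core of the cAMP response element, in 17.8%, upstream of Irs1, Akt2 and the second start of Pik3r1. The ATF4 composite site TGATGNA, in 10.4%, was found upstream of 1 of the 4 Akt2 starts. The Irs1, Irs2 and first Akt2 windows are printed because the pair of substrate genes share the E-box and differ in the spread of their levels, and because Akt2 is the most abundant member. Irs1 lies at chr1:82291440-82291689 on the minus strand, Irs2 at chr8:11008930-11009179 on the minus strand and Akt2 at chr7:27591302-27591551 on the plus strand, each written 5′ to 3′. Capitals mark the motif matches, which in Irs1 are an E-box at position -115 and a TGACG core at -118 that overlap, in Irs2 an E-box at -44 and in Akt2 a TGACG core at -44.
Irs1 promoter: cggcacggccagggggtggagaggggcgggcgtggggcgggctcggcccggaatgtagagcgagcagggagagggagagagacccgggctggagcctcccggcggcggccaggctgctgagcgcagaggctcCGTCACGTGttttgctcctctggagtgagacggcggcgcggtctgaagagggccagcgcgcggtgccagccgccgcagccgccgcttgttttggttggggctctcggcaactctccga
Irs2 promoter: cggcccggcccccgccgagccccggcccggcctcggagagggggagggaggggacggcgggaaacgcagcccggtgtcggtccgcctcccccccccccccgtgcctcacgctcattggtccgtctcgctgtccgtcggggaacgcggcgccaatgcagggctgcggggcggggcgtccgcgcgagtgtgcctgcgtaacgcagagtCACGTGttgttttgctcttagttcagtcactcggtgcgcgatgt
Akt2 promoter: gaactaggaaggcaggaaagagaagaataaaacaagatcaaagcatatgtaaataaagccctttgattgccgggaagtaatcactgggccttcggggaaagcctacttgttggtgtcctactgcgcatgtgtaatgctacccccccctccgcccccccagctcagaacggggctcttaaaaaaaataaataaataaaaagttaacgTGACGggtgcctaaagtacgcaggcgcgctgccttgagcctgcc
A match in such a window is a description of the letters and no evidence of binding.

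Insr, the insulin receptor, lies on chr8:3122061-3279617 (GRCm38, minus strand). It was measured at 4145, 4386 and 4497 normalized counts in the Atf4WT RT libraries and at 4926, 4924 and 4598 after cold. In Atf4AKO iWAT it stood at 3995, 4477 and 4478 at RT and at 5499, 5761 and 5818 after cold. Cold libraries were above RT libraries in both genotypes without overlap, and the Atf4AKO cold libraries were above all others.

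Insr rose 1.32-fold with cold in Atf4AKO iWAT, a log2 fold change of 0.40 (95% interval 0.25 to 0.55; limma, adjusted p = 0.00233). This call held in 24 of 24 alternative analyses, with log2 fold changes from 0.34 to 0.43 and adjusted p up to 0.0187. With the lymphocyte marker level as a covariate the log2 fold change was 0.40, and the lymphocyte markers of Atf4AKO iWAT overlapped between RT and cold. The mean log2 level of 6 fibroblast markers was lower after cold in both genotypes, at 13.74 to 14.35 in Atf4AKO RT and 11.98 to 13.35 in Atf4AKO cold, and across the 12 libraries Insr and this level had a Pearson r of -0.70; its part in the rise was not tested. The change stayed under the 1.5-fold threshold that the study used for its DEGs (differentially expressed genes).

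In Atf4WT iWAT the cold difference of Insr was 0.15 on the log2 scale (95% interval -0.005 to 0.30; adjusted p = 0.126). Between genotypes after cold, Insr was 0.24 higher in Atf4AKO (95% interval 0.09 to 0.40), without overlap of the libraries, with an unadjusted p of 0.00539 and an adjusted p of 0.146 in limma. DESeq2 on the recovered reads put the same difference at an adjusted p of 0.0214, and edgeR at 0.224. In this comparison DESeq2 called 591 of 14159 genes and edgeR 3 of 13661. At RT the genotypes differed by -0.01 (95% interval -0.16 to 0.14). The difference between the cold responses was 0.25 (95% interval 0.03 to 0.47) with an adjusted p of 0.600, so a larger response in Atf4AKO iWAT was not shown.

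Insr also outweighed its paralog Igf1r, the receptor for insulin-like growth factors. Per kb, Insr made up 90.2% ± 0.50 (SD, n = 3) of the pair in Atf4WT RT and 91.6% ± 0.52 after cold, and 91.4% ± 0.92 and 93.7% ± 1.18 in Atf4AKO. Igf1r itself ranged from 364 to 620 normalized counts, with log2 differences of -0.09 and -0.10 for cold in Atf4WT and Atf4AKO, neither past the test.

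Irs1 encodes the substrate that links the receptor to phosphoinositide 3-kinase in fat and muscle, and lies on chr1:82233101-82291416 (minus strand). Its normalized counts were 3297, 3229 and 3033 in Atf4WT RT and 3366, 2041 and 2179 in Atf4WT cold. In Atf4AKO they were 4149, 3307 and 2878 at RT and 2935, 3246 and 3289 after cold. Replicate 0 of Atf4WT cold lay with the RT libraries, and the other 2 were the lowest of all 12. The cold difference in Atf4WT was -0.37 on the log2 scale (95% interval -0.76 to 0.02; adjusted p = 0.131), and in Atf4AKO -0.11 (95% interval -0.50 to 0.28).

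The Irs1 result in Atf4WT turned on that library. Without replicate 0 of Atf4WT cold the log2 fold change was -0.59 with an adjusted p of 0.00938. Atf4AKO then exceeded Atf4WT after cold by 0.58 (adjusted p = 0.0391), against 0.35 (95% interval -0.03 to 0.74) with all libraries. Leaving out that library was not particular to Irs1: between genotypes after cold it gave 517 calls over all 13400 genes, against 4 of 13404 with all libraries. For cold in Atf4WT it gave 3839 calls, against 4273. T cell markers were at a mean log2 level of 6.26 in that library and at 9.17 and 9.34 in the other 2 of the group. Muscle markers went the other way, at 10.8 in that library and at 4.66 and 5.28 in the other 2. Their Pearson r with Irs1 over the 12 libraries was 0.11, and their part in its values was not tested. Over the 12 libraries Irs1 and the T cell markers had a Pearson r of -0.85, and with the lymphocyte marker level as a covariate the Irs1 difference in Atf4WT was 0.04 (adjusted p = 0.926). Since each Atf4WT cold library had a lymphocyte level above those of all other libraries, the marker level and the group cannot be told apart. A gene annotated on the opposite strand, Gm9747, shares 2822 bases of exon with Irs1, and the strand setting of the counting is not stated, so its reads could be part of the Irs1 value.

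Irs2, the substrate best known for its strong control by fasting and feeding in liver, lies on chr8:10984681-11008458 (minus strand), where 9530052E02Rik on the opposite strand shares 162 bases of its exons. It was at 1490, 929 and 1489 normalized counts in Atf4WT RT and 1852, 911 and 1399 after cold. Atf4AKO libraries were at 1655, 2359 and 1094 at RT and 2620, 769 and 2773 after cold. The lowest and the highest Irs2 library were both Atf4AKO cold libraries, 3.61-fold apart, and the 4 groups overlapped. Log2 differences were 0.07 for cold in Atf4WT (95% interval -0.97 to 1.10) and 0.13 in Atf4AKO (95% interval -0.90 to 1.16).

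Macrophage markers moved with part of this spread. Their mean log2 level over 7 genes was 9.28 in replicate 1 of Atf4WT cold and 8.64 in replicate 1 of Atf4AKO cold, against 10.44 to 11.47 in the other 10 libraries, and these were the lowest Irs2 libraries of their groups. The Pearson r of Irs2 with the macrophage level was 0.60 over the 12 libraries, and its part in the Irs2 values was not tested. The genes most like Irs2 over the libraries were Atf3 (r = 0.89), a stress-responsive transcription factor, Gpnmb (0.86), a membrane glycoprotein of lipid-laden macrophages, and Atp6v0d2 (0.85), a subunit of the lysosomal proton pump.

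Irs3, a substrate gene that rodents express in fat, was the highest of the 3 measured IRS genes per kb. It made up 49.1% ± 8.13 (SD, n = 3) of the family in Atf4WT RT and 51.3% ± 5.23 after cold, with 46.5% ± 6.89 and 46.8% ± 13.9 in Atf4AKO. Its log2 cold differences were -0.07 and 0.06, far from the threshold. The log2 ratio of Irs2 to Irs1 overlapped between groups in each of the 4 comparisons, and cold moved it by 0.43 in Atf4WT (exact permutation test, two-sided, p = 0.3) and 0.24 in Atf4AKO (exact p = 0.8).

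Pik3r1 lies on chr13:101680563-101768217 (minus strand) and had the widest range among RT libraries. Atf4WT RT libraries held 10002, 13301 and 8015 normalized counts and Atf4WT cold libraries 9335, 7410 and 7115. The Atf4AKO libraries held 17806, 12140 and 5269 at RT and 7233, 8637 and 9719 after cold. Replicates 0 and 2 of Atf4AKO RT were the highest and the lowest of all 12, so the RT group spanned the others. Cold differences were -0.37 in Atf4WT (95% interval -1.15 to 0.41) and -0.30 in Atf4AKO (95% interval -1.08 to 0.48). Without replicate 2 of Atf4AKO RT the latter was -0.80 with an adjusted p of 0.0357, and without replicate 0 it was 0.08.

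Among the regulatory subunits, Pik3r1 provided 64.4% to 68.9% of the group means per kb, Pik3r2 25.6% to 29.1% and Pik3r3 5.08% to 6.75%. The Pik3r1 to Pik3r2 ratio overlapped between groups in each comparison, with exact p from 0.2 to 1. Of the catalytic subunits, Pik3ca ranged from 1542 to 1931 normalized counts with no call. Pik3cb rose with cold in both genotypes, by 0.38 in Atf4WT (adjusted p = 0.0479) and 0.46 in Atf4AKO (adjusted p = 0.0260). The Pik3cb call held in 11 of 24 alternatives in Atf4WT, and it was lost without any 1 of 9 libraries, namely each library except Atf4WT RT replicate 0, Atf4AKO RT replicate 2 and Atf4WT cold replicate 1 (log2 fold changes 0.29 to 0.38). In Atf4AKO it held in 20 of 24 and was lost without replicate 0 or 2 of Atf4AKO RT or replicate 0 or 2 of Atf4AKO cold (0.37 to 0.48).

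Akt2 lies on chr7:27591552-27640826 (plus strand). Its libraries were at 17275, 16659 and 15000 normalized counts in Atf4WT RT and at 15059, 12900 and 12733 after cold. Atf4AKO libraries were at 16359, 20841 and 15927 at RT and 14358, 16720 and 15194 after cold. In Atf4WT the highest cold library reached just past the lowest RT library. The cold difference was -0.27 in Atf4WT (95% interval -0.53 to -0.002; unadjusted p = 0.0487, adjusted p = 0.113) and -0.19 in Atf4AKO (95% interval -0.46 to 0.07).

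Marker levels moved with Akt2, and their part in its values was not tested. The Pearson r of Akt2 over the 12 libraries was 0.79 with the adipocyte markers and -0.77 with the T cell markers, and with the lymphocyte level as a covariate the Atf4WT difference was 0.09 (adjusted p = 0.712). Its nearest genes over the libraries were Mccc2 (r = 0.95), a subunit of the mitochondrial enzyme of leucine breakdown, Mpst (0.94) and Ano10 (0.93).

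Akt1, the widely expressed paralog of Akt2, rose with cold in both genotypes. It was at 3209 to 3610 normalized counts in Atf4WT RT and 4979 to 5292 after cold, and at 3483 to 3620 and 4862 to 5194 in Atf4AKO. The log2 fold changes were 0.62 (SE 0.07; adjusted p = 0.000127) and 0.51 (SE 0.07; adjusted p = 0.000454), and both calls held in 24 of 24 alternatives. The share of Akt2 in the sum of Akt1 and Akt2 per kb was 73.5% ± 1.33 (SD, n = 3) in Atf4WT RT and 60.0% ± 3.02 after cold, and 74.0% ± 2.46 and 63.6% ± 1.38 in Atf4AKO. The log2 ratio of Akt2 to Akt1 was lower after cold by -0.89 in Atf4WT and -0.71 in Atf4AKO without overlap of the libraries. The exact permutation test gave p = 0.1 for each, the smallest it can give with 3 libraries against 3, and 0.32 after adjustment over 16 ratio tests.

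**Figure D2:**
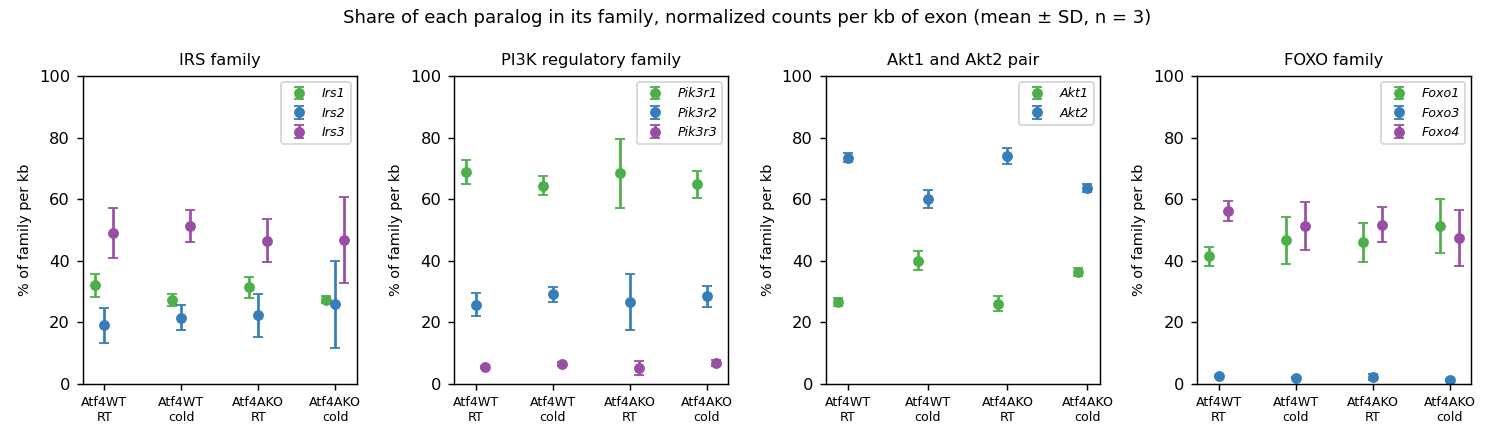
Share of each paralog in the summed level of its family (y axis, percent of normalized counts per kb of exon) in the 4 groups, with a panel each for the IRS family, the PI3K regulatory family, the Akt1 and Akt2 pair and the FOXO family; points are means and bars SDs of 3 libraries. The share of Akt2 is 73.5% and 74.0% at RT and 60.0% and 63.6% after cold, and Irs3 and Pik3r1 have the largest mean shares of their families in each group.

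Foxo1 lies on chr3:52268336-52353221 (plus strand). It stood at 2527, 3266 and 3430 normalized counts in Atf4WT RT and 1935, 3215 and 2939 after cold. Atf4AKO libraries held 2300, 4392 and 3631 at RT and 2786, 2681 and 4349 after cold. Each group held both high and low libraries, and the cold differences were -0.21 in Atf4WT (95% interval -0.80 to 0.38) and -0.06 in Atf4AKO (95% interval -0.65 to 0.54). The antisense gene Gm20402 shares 674 bases of exon with Foxo1.

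The paralogs of Foxo1 were lower after cold. Foxo4, at 1045 to 1730 normalized counts, fell by 0.51 on the log2 scale with cold in Atf4WT (adjusted p = 0.00614) and by 0.35 in Atf4AKO (adjusted p = 0.0408). Foxo3, a low gene here with 56 to 181 normalized counts, fell by 0.94 in Atf4AKO (adjusted p = 0.0252), and in Atf4WT its difference was -0.66 (adjusted p = 0.0830). The Foxo4 call in Atf4WT was lost with the lymphocyte covariate (-0.40, adjusted p = 0.180), and that in Atf4AKO without Atf4WT RT replicate 0 or 1, Atf4AKO RT replicate 1 or 2, or Atf4AKO cold replicate 0 or 2 (-0.35 to -0.28). The Foxo3 call was lost without replicate 0 or 1 of Atf4AKO RT or replicate 0 or 1 of Atf4AKO cold, with log2 fold changes of -0.90 to -0.75. Relative to Foxo3 per kb, Foxo1 was higher after cold by 0.45 log2 units in Atf4WT and 0.89 in Atf4AKO, and higher in Atf4AKO than in Atf4WT after cold by 0.72, each without overlap and at the smallest exact p of 0.1. The exact permutation p of each was 0.32 after adjustment over 16 ratio tests, and Foxo1 itself was not called.

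**Figure D3:**
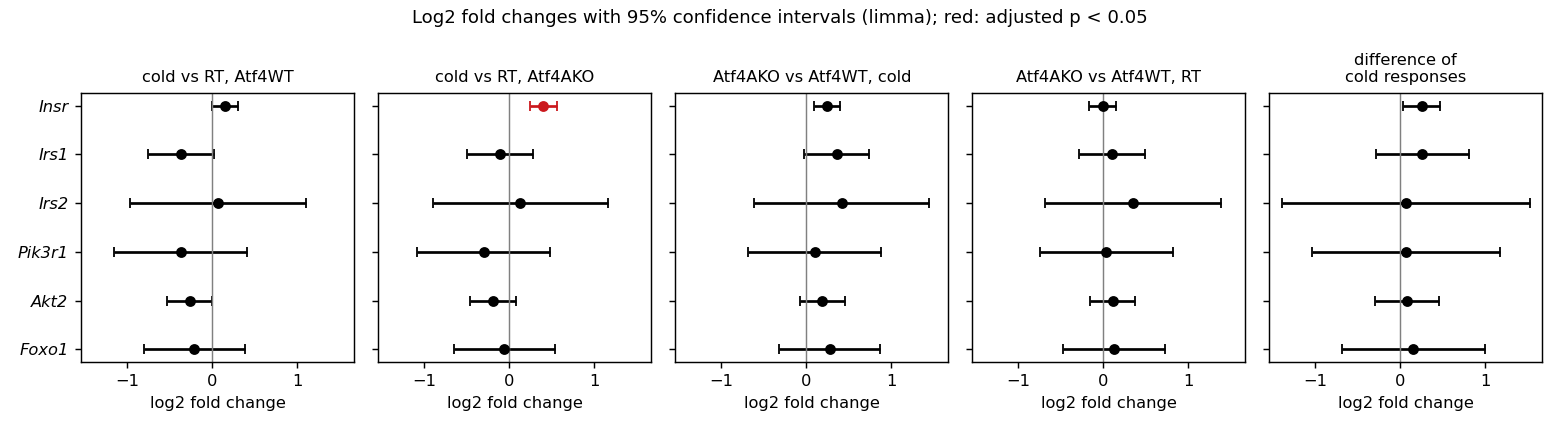
Log2 fold changes (x axis) of the 6 insulin signaling genes with their 95% intervals from limma in 5 comparisons, 1 per panel; red marks an adjusted p below 0.05. Insr after cold in Atf4AKO, at 0.40 with an interval of 0.25 to 0.55, is the single red point, and the intervals of Irs2 are the widest in each panel.

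Counted over the members, cold changed 0 of 6 in Atf4WT, where limma called 31.9% of all genes tested, and 1 of 6 (Insr) in Atf4AKO, where it called 25.9%. In Atf4WT 1 member (Akt2) had an unadjusted p under 0.05, as did 43.4% of all genes. There edgeR and DESeq2 called 0 members, beside 4340 of 13661 and 4795 of 14159 genes. In Atf4AKO Insr was the 1 member under that threshold, beside 39.1% of genes. It was also called by edgeR and DESeq2, which called 3456 of 13661 and 4011 of 14159 genes. Groups did not overlap for 1 of 6 members (Insr) in each genotype, against 46.8% of genes in Atf4WT and 41.7% in Atf4AKO. The rule of a fold over 1.5 with an unadjusted p under 0.05 took 0 members in either genotype, against 21.2% and 17.2% of all genes. The median cold difference of the members was -0.24 in Atf4WT and -0.08 in Atf4AKO, beside 0.003 and -0.03 over all genes tested.

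Between genotypes after cold, 0 of 6 members were called by limma, with 0.0298% of all genes called. Insr was the 1 member with an unadjusted p under 0.05 (11.7% of genes). Of the members edgeR called 0, beside 3 of 13661 genes, and DESeq2 called 1 (Insr), beside 591 of 14159 genes. The rule of fold and unadjusted p took 0 members, beside 6.4% of genes. Insr was also the 1 of 6 members whose libraries did not overlap, against 16.5% of genes. The log2 differences of all 6 members were above 0, from 0.10 to 0.41, as were those of 59.3% of all genes, and those of Irs1, Pik3r1 and Akt2 turned to -0.14, -0.73 and -0.25 with the lymphocyte covariate. At RT limma called 0 of 6, beside 0.00746% of genes, with 0 members at an unadjusted p under 0.05 (1.53% of genes). There edgeR and DESeq2 called 0 members, beside 1 of 13661 and 4 of 14159 genes. The rule of fold and unadjusted p took 0 (0.463% of genes), and 0 were without overlap (6.3% of genes). For the difference of the cold responses limma called 0 of 6 and 0% of genes. At an unadjusted p under 0.05 there was 1 member (Insr), beside 6.92% of genes. For this difference edgeR and DESeq2 called 0 members, beside 0 of 13661 and 128 of 14159 genes. The rule of fold and unadjusted p took 0 (4.63% of genes).

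Other genes of the pathway were called with cold in both directions. Of 75 further genes from receptor inhibitors to glucose transport, 73 were listed and tested, and cold changed 23 in Atf4WT (13 higher, 10 lower) and 22 in Atf4AKO (15 higher, 7 lower). These are 31.5% and 30.1% of the list, beside 31.9% and 25.9% of all genes. By the rule of fold and unadjusted p it was 10 genes (13.7%) in Atf4WT and 8 (10.96%) in Atf4AKO, beside 21.2% and 17.2% of all genes. The calls shared 15 genes, 65.2% of the Atf4WT calls and 68.2% of the Atf4AKO calls, of which 10 were higher and 5 lower in both. The shared part of the calls over all genes is not given here, so this overlap is not read as a trait of the pathway. The median difference of the list was 0.05 in Atf4WT and -0.01 in Atf4AKO. Leaving out Atf4WT RT replicate 1, Atf4WT cold replicate 0 or Atf4WT cold replicate 2 gave 15 calls in Atf4WT. Over all genes these gave 3023, 3839 and 3327 calls, against 4273 with all libraries. Leaving out Atf4AKO RT replicate 0 gave 12 calls in Atf4AKO, and 2210 over all genes against 3467.

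Inhibitors acting at the receptor gave the lowest log2 fold change of the list. Grb14, an adaptor that binds the activated insulin receptor and blocks its kinase, was at 1826, 1584 and 1645 normalized counts in Atf4WT RT and 198, 240 and 221 after cold. In Atf4AKO it was at 1634, 1417 and 891 at RT and 367, 329 and 200 after cold. The RT libraries lay above all cold libraries, and Grb14 fell by 2.94 on the log2 scale in Atf4WT (SE 0.24; adjusted p = 4.01e-05) and by 2.14 in Atf4AKO (SE 0.24; adjusted p = 0.000230). Ptprf, a receptor phosphatase known to act on the insulin receptor, fell by 1.29 and 1.00 (adjusted p = 0.000251 and 0.00118). The calls of both genes held in 24 of 24 alternatives in each genotype. The cold responses of Grb14 differed between genotypes by 0.80 (95% interval 0.04 to 1.56; adjusted p = 0.667).

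The other 6 inhibitors were not called in either genotype. The 2 of 8 called in each stand beside 31.9% of all genes in Atf4WT and 25.9% in Atf4AKO. Enpp1, which impairs receptor signaling, had a difference of 1.32 in Atf4WT (adjusted p = 0.106) and -0.45 in Atf4AKO. Socs3, a cytokine-induced inhibitor of the substrates, had 0.55 and -0.84, and Grb10, the closest relative of Grb14, had -0.19 and -0.11. Ptpn1, the gene of the phosphatase PTP1B, had 0.33 and -0.07.

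**Figure D4:**
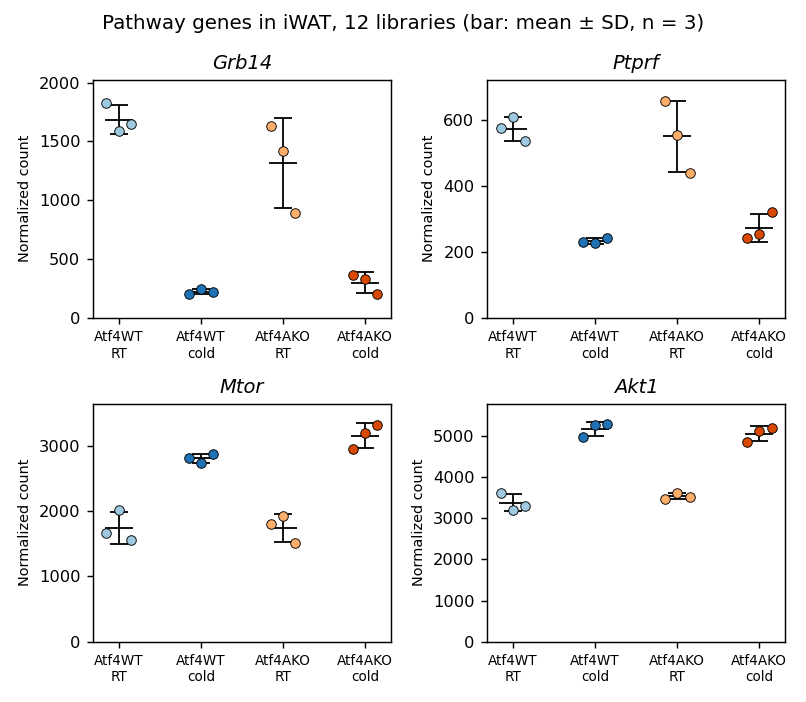
Normalized counts (y axis, linear from 0) of Grb14, Ptprf, Mtor and Akt1 in the 12 libraries, by group on the x axis; points are libraries, and bars are the mean and SD of 3 libraries. Grb14 sits at 891 to 1826 at RT and 198 to 367 after cold, Ptprf is also lower after cold, and Mtor and Akt1 are higher after cold, without overlap in either genotype.

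Several kinases of the pathway rose as well. In the role of AKT kinases and their activators, 3 of 8 genes rose in Atf4WT (Akt1, Mtor and Mlst8), 4 of 8 in Atf4AKO (these and Prr5), and none fell, while 31.9% and 25.9% of all genes were called in either direction. Prr5, a subunit of mTORC2, rose by 0.34 in Atf4AKO (adjusted p = 0.0455), a call that held in 11 of 24 alternatives and was lost with the lymphocyte covariate (adjusted p = 0.0628), in edgeR and without any 1 library except Atf4AKO RT replicate 1, Atf4WT cold replicate 0 and Atf4AKO cold replicate 1 (0.29 to 0.34). Mtor, the kinase shared by both mTOR complexes, was at 1554 to 2012 normalized counts in Atf4WT RT and 2737 to 2868 after cold, and rose by 0.70 in Atf4WT (SE 0.11; adjusted p = 0.00118) and 0.86 in Atf4AKO (SE 0.11; adjusted p = 0.000458). Its partner Mlst8 rose by 0.37 and 0.48 (adjusted p = 0.0204 and 0.00766), and the Atf4WT call was lost without Atf4WT RT replicate 1 or 2 or Atf4WT cold replicate 0 or 1 (0.30 to 0.38). Gsk3a, a glycogen synthase kinase that AKT inhibits, rose by 0.52 and 0.54, and Map2k2, a kinase of the MAPK arm, by 0.63 and 0.49. The Mtor, Gsk3a and Map2k2 calls held in 24 of 24 alternatives in each genotype. Mlst8 shares 997 and Gsk3a 820 bases of exon with genes on the opposite strand.

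Sh2b1, an adaptor that favors receptor signaling, rose by 0.46 in Atf4WT and 0.50 in Atf4AKO, and its call was lost with the lymphocyte covariate in Atf4WT (adjusted p = 0.0658). Trib1, a pseudokinase of the tribbles family, rose by 0.57 and 0.62. The Trib1 call was lost without Atf4WT RT replicate 2, Atf4WT cold replicate 0 or Atf4WT cold replicate 2 (log2 fold changes 0.38 to 0.60), and without Atf4AKO RT replicate 0, Atf4AKO RT replicate 2 or Atf4AKO cold replicate 2 (0.48 to 0.59). Tbc1d4, the AKT substrate AS160 that holds back glucose transporter vesicles, rose by 0.55 in Atf4WT (adjusted p = 0.0198) and had 0.43 in Atf4AKO (adjusted p = 0.0633). The Tbc1d4 call in Atf4WT was lost with the lymphocyte covariate (0.35, adjusted p = 0.389) and without Atf4WT RT replicate 1 (0.49, adjusted p = 0.0724).

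Inpp4b, a phosphatase of a phosphoinositide 3-kinase product, had cold differences of opposite sign in Atf4WT and Atf4AKO, as had Enpp1, Socs3 and Insrr among others. Inpp4b rose by 1.11 in Atf4WT (SE 0.37, limma adjusted p = 0.0422) and had -0.44 in Atf4AKO (adjusted p = 0.412). With the lymphocyte level as a covariate the Atf4WT value was 0.01 (adjusted p = 0.989), and the call held in 12 of 24 alternatives. It was lost without Atf4WT RT replicate 0, 1 or 2, Atf4AKO RT replicate 0 or 1, Atf4WT cold replicate 1 or 2, or Atf4AKO cold replicate 0, with log2 fold changes of 0.77 to 1.17.

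Genes that fell with cold included parts of the membrane platform and of translation control. Cav1, the coat protein of caveolae that hold insulin receptors in adipocytes, fell by 0.85 in Atf4WT (adjusted p = 0.00286) and 0.51 in Atf4AKO (adjusted p = 0.0359). Eif4ebp1, a translation repressor inactivated by mTORC1 and an ATF4 target, fell by 0.71 and 0.72 (adjusted p = 0.00665 and 0.00724). Dok1, a docking protein, fell by 0.71 in Atf4AKO (adjusted p = 0.0285). With the lymphocyte covariate the Atf4WT values of Cav1 and Eif4ebp1 were -0.55 and -0.33, neither past the threshold. In Atf4AKO the Cav1 call was lost without Atf4WT RT replicate 0, Atf4AKO RT replicate 0 or 1, or any 1 of the Atf4AKO cold replicates 0, 1 and 2 (-0.56 to -0.37), and the Dok1 call without Atf4AKO RT replicate 0 or 2 or Atf4AKO cold replicate 1 (-0.69 to -0.43).

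**Figure D5:**
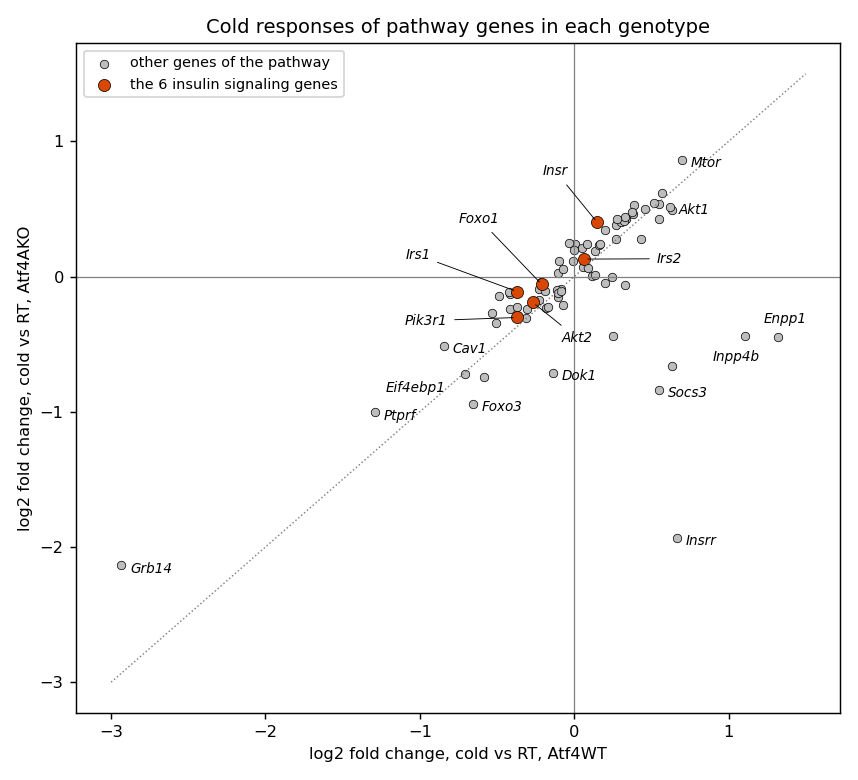
Cold against RT log2 fold changes of the 6 insulin signaling genes (orange) and 73 other genes of the pathway (grey) in Atf4WT (x axis) and Atf4AKO (y axis); each point is a gene and the dotted line marks equal values. Grb14 lies at -2.94 and -2.14, the 6 members lie between -0.37 and 0.40 on both axes, and Inpp4b, Enpp1, Socs3 and Insrr lie to the right of the line.

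Slc2a4, which encodes the insulin-responsive glucose transporter GLUT4, was at 7640 to 13271 normalized counts in Atf4WT RT and 12564 to 13985 after cold, and at 8616 to 14222 and 12576 to 17302 in Atf4AKO. Its log2 differences were 0.32 (adjusted p = 0.306) and 0.41 (adjusted p = 0.205). Of the 8 genes of glucose transporters and their traffic, 3 fell in Atf4WT, where 31.9% of all genes were called, and 0 were called in Atf4AKO, where 2 had an unadjusted p under 0.05 beside 39.1% of all genes. The 3 were Prkci (-0.42), an atypical protein kinase C, Rhoq (-0.41), the small GTPase TC10, and Exoc7 (-0.23), an exocyst subunit. With the lymphocyte covariate all 3 calls were lost, at -0.25, -0.06 and -0.28 (adjusted p = 0.273, 0.862 and 0.188), and that of Exoc7 held in 9 of 24 alternatives. The Rhoq call was also lost without Atf4WT RT replicate 0 or 1 or any 1 of the Atf4WT cold replicates (-0.45 to -0.35), and that of Exoc7 without any 1 library except Atf4WT RT replicate 0 (-0.25 to -0.16).

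Between genotypes after cold 0 of 73 pathway genes were called by limma, with 13 at an unadjusted p under 0.05 (11.7% of all genes), 0 called by edgeR and 1 by DESeq2, which called 591 of all 14159 genes. The threshold of the study took 7, all lower in Atf4AKO: Insrr (-2.02), Enpp1 (-1.85), Inpp4b (-1.53), Socs3 (-1.22), Socs1 (-1.12), Trib3 (-0.82) and Dok1 (-0.67), or 9.59% of the list beside 6.4% of all genes. Over all genes tested this threshold took 858, of which 810 were lower in Atf4AKO, so the direction is not particular to the pathway. Insrr, Enpp1 and Socs1 were low genes here, at 4.3 to 72.5, 9.07 to 153.5 and 33.3 to 137.5 normalized counts over the 12 libraries. In the same comparison all 22 lymphocyte markers were lower in Atf4AKO, with medians of -5.70 for 9 B cell and -3.68 for 13 T cell markers. With the lymphocyte covariate, 3 pathway genes had an unadjusted p under 0.05 and 0 were called. Trib3, an ATF4 target that binds AKT, was at 195 to 419 normalized counts in Atf4WT cold and 114 to 269 in Atf4AKO cold, which overlap. At RT and for the difference of the cold responses limma, edgeR and DESeq2 called 0 of 73. Over all genes limma called 1 and 0 in these comparisons, edgeR 1 and 0, and DESeq2 4 and 128. At an unadjusted p under 0.05 in limma there were 0 and 6 pathway genes, beside 1.53% and 6.92% of all genes.

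Genes downstream of the pathway changed in both directions. Among 8 lipogenic genes that insulin is known to induce, Mlxipl, the gene of the sugar-responsive factor ChREBP, rose by 1.04 in Atf4WT (adjusted p = 0.00172) and 1.19 in Atf4AKO (adjusted p = 0.000977), and Pnpla3 rose by 0.85 in Atf4AKO (adjusted p = 0.00758). The 1 of 8 called in Atf4WT and 2 of 8 in Atf4AKO stand beside 31.9% and 25.9% of all genes. The other genes of this list, Srebf1, Fasn, Acly, Acaca, Scd1 and Elovl6, were not called. Fasn, the fatty acid synthase, had 0.57 in Atf4WT and 0.48 in Atf4AKO, and Scd1, the stearoyl-CoA desaturase, had -0.85 and -0.16.

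Of 8 known FOXO targets, 3 were called in Atf4WT and 4 in Atf4AKO, where 31.9% and 25.9% of all genes were called. Pdk4, the pyruvate dehydrogenase kinase of fasting, rose by 1.69 and 2.15 (adjusted p = 0.0111 and 0.00401), and Bcl6, a transcriptional repressor, rose by 1.30 and 1.56 (adjusted p = 0.00608 and 0.00284). Cited2 fell by 0.93 and 0.73 (adjusted p = 0.00379 and 0.0154), and Sesn3 fell by 0.79 in Atf4AKO (adjusted p = 0.0271). With the lymphocyte covariate the Atf4WT calls of Mlxipl (0.68), Pdk4 (0.95), Bcl6 (0.94) and Cited2 (-1.05) were lost, while in Atf4AKO those of Mlxipl, Pnpla3, Pdk4 and Bcl6 held in 24 of 24 alternatives. The Cited2 call in Atf4AKO was lost without Atf4AKO RT replicate 0 (-0.69), and the Sesn3 call without Atf4AKO RT replicate 0 or 1 or Atf4AKO cold replicate 0 or 2 (-0.80 to -0.66). Klf15, Sesn1, Ccng2 and Pnpla2 were not called in either genotype. Between genotypes after cold, 0 of 8 lipogenic and 0 of 8 FOXO target genes were called, with 1 and 2 at an unadjusted p under 0.05, beside 0.0298% and 11.7% of all genes by these rules. Of the 4 ATF4 targets that act on AKT or mTORC1 (Trib3, Sesn2, Ddit4 and Eif4ebp1), Eif4ebp1 alone was called with cold, and 0 were called between genotypes. With cold, 31.9% of all genes were called in Atf4WT and 25.9% in Atf4AKO.

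Over the 12 libraries the members formed no single group. Irs1, Pik3r1 and Akt2 had pairwise Pearson r of 0.52 to 0.69 on the log2 scale, libraries that share tissue makeup and group. Insr had r of -0.38 to 0.15 with the other 5 members, and Foxo1 of -0.21 to 0.22. Among 11842 genes, those nearest to Insr were Tsc2 (0.96), Tatdn1 (0.95) and Prkar1a (0.94). Tsc2, a brake on mTORC1, rose by 0.24 in Atf4AKO (adjusted p = 0.0183), a call lost without Atf4AKO RT replicate 0 or Atf4AKO cold replicate 1 or 2 (0.22). It shares 693 bases of exon with Pkd1 on the opposite strand. Genes near Irs1 included Scamp5 (0.91) and Cnep1r1 (0.90), and Pik3r1 was nearest to Tyw1 (0.93), Epg5 (0.91) and Zdhhc3 (0.91), and Foxo1 to Gtdc1 (0.86), Slc52a3 (0.85) and Klf9 (0.82).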

How the data were processed

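Polyadenylated RNA of whole iWAT was sequenced in 12 libraries. The authors used SOAPnuke to filter reads, STAR for mapping to mm10, featureCounts for counting uniquely mapped reads and pyDESeq2 for size factors. Versions and the strand setting are not given in the sources used here. The deposited signal is the normalized count, reads per gene over the size factor of that library, and genes with 0 reads in any library are not in the table. Dividing by the smallest value of a library gave whole reads for 100% of values within 0.01 reads, and edgeR 4.0.16 and DESeq2 1.42.0 were run on these.

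The main test was limma 3.58.1 (R 4.3.3, eBayes with trend) on log2(normalized count + 1) for 13404 genes with a mean of at least 10, leaving 755 out, with 4 group means and no covariate. The adjusted p is the Benjamini-Hochberg value over all genes tested, and a gene was called below 0.05. The study names DESeq2 and a 1.5-fold, p below 0.05 rule, given as alternatives. Fold changes are on the log2(count + 1) scale, and p-values measure the spread between biological replicates. Paralog ratios were tested with two-sided exact permutation tests. Exon lengths and positions come from GENCODE (GRCm38), and promoters from RefSeq. The members and gene lists were chosen with earlier results of these data known. Named pathway genes are up to 6 called higher and 6 called lower per genotype with the largest cold differences, a fixed set of paralogs and partners, the target lists and 3 nearest genes per member. Enpp1, Socs1, Socs3, Grb10, Ptpn1, Insrr, Mlst8, Prr5, Prkci, Rhoq and Exoc7 were added after their values were seen. A few genes that this rule names are not reported here. The test was checked on simulated data for cold against RT in Atf4WT. There limma recovered 13 of 100 genes changed 1.5-fold and 67 of 100 changed 2-fold, and called 1 unchanged gene. DESeq2 recovered 39 and 81 and called 19 unchanged genes. All other genes were simulated without a change, while in the data limma called 4273 of 13404 genes in this comparison. The Benjamini-Hochberg threshold is less strict where more genes change, so the recoveries do not carry over to the cold comparison. A gene that limma did not call may still have changed by such a fold. Alternatives were other pseudocounts (0.5 and 5), filters (none and 50), 75th percentile scaling, only the groups compared, array weights, lymphocyte or adipocyte marker covariates, a replicate block, edgeR, DESeq2 and leaving out each library in turn.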

Additional observations from a re-analysis of the deposited data

How the results depend on the processing

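The 24 alternatives (23 for the difference of the cold responses) left the Insr call with cold in Atf4AKO in place. The count of members called with cold in Atf4WT was 2 with array weights, beside 5306 of all 13404 genes. It was 0 to 1 with 1 library left out (1 without Atf4WT cold replicate 0, beside 3839 of 13400 genes). In Atf4AKO it was 0 by the rule of a fold over 1.5 with an unadjusted p under 0.05 (17.2% of all genes). With 1 library left out it was 1 to 2 there (2 without Atf4AKO RT replicate 2, beside 2864 of 13398 genes). Between genotypes after cold it was 1 with DESeq2, beside 591 of 14159 genes. With 1 library left out it was 0 to 1 (1 without Atf4WT cold replicate 0, beside 517 of 13400 genes).

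The count of pathway genes called with cold in Atf4WT was 15 when only the groups compared entered, beside 3558 of all 13404 genes. With the lymphocyte covariate it was 11, beside 1845 of 13382 genes. It was 10 by the rule of fold and unadjusted p (21.2% of all genes). With 1 library left out it was 15 to 24, beside 3023 to 4427 calls over all genes. In Atf4AKO it was 8 by that rule (17.2% of all genes). With 1 library left out it was 12 to 23 there, beside 2210 to 3566 calls over all genes. After cold between genotypes it was 1 with DESeq2 (591 of 14159 genes) and 7 by that rule (6.4% of all genes). For the difference of the cold responses it was 5 by that rule (4.63% of all genes). With 1 library left out both comparisons gave 0 to 1, with 1 without Atf4WT cold replicate 0. Over all 13400 genes that fit gave 517 calls between genotypes after cold and 65 for the difference of the cold responses.

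Turns of direction were limited to values that did not pass the test, and the cause was not tested. With the lymphocyte covariate the cold differences in Atf4WT were 0.045 for Irs1, -0.12 for Irs2, 0.32 for Pik3r1 and 0.092 for Akt2, the genotype differences after cold -0.14 for Irs1, -0.73 for Pik3r1 and -0.25 for Akt2, and the differences of the cold responses -0.23, -0.74 and -0.34 for the same 3 genes. With the adipocyte covariate Irs2 was -0.029 with cold in Atf4WT, Pik3r1 -0.13 after cold and -0.046 at RT between genotypes, and the differences of the cold responses were -0.080 for Pik3r1 and -0.0063 for Akt2. With array weights Irs2 was -0.024 with cold in Atf4WT, Foxo1 0.135 with cold in Atf4AKO and Pik3r1 -0.19 in the difference of the cold responses, where edgeR gave -0.090 and DESeq2 -0.068.

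With 1 library left out, cold differences in Atf4WT ranged from -0.17 to 0.34 for Irs2 and from -0.35 to 0.013 for Foxo1. In Atf4AKO they ranged from -0.23 to 0.031 for Irs1, -0.19 to 0.73 for Irs2, -0.80 to 0.082 for Pik3r1 and -0.32 to 0.14 for Foxo1. Genotype differences at RT ranged from -0.043 to 0.045 for Insr, -0.046 to 0.22 for Irs1, -0.35 to 0.53 for Pik3r1, -0.013 to 0.18 for Akt2 and -0.077 to 0.39 for Foxo1. Differences of the cold responses ranged from -0.26 to 0.67 for Irs2, -0.42 to 0.45 for Pik3r1 and -0.11 to 0.35 for Foxo1. The log2 ratio of Irs2 to Irs1 ranged from -0.038 to 0.42 between genotypes at RT, -0.092 to 0.86 with cold in Atf4AKO and -0.27 to 0.68 between genotypes after cold. That of Akt2 to Akt1 ranged from -0.068 to 0.11 at RT, and that of Pik3r1 to Pik3r2 from -0.38 to 0.36 at RT, -0.60 to 0.13 with cold in Atf4AKO and -0.11 to 0.15 after cold.

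Replicate numbers 0 to 2 recur in the groups. Over 18 pairs of libraries with the same number, deviations from the group means had r from -0.19 to 0.39 with 8 over 0.1, a mean of 0.11 against -0.05 for other pairs, and 6 of 12 libraries correlated best with their own number. All pairs of replicate 1 lay between 0.18 and 0.39, as a hint from the data, but since not every pair was over 0.1 the numbers were not used to pair the libraries. A fit with the replicate number as a block gave 0 members called with cold in Atf4WT, 1 in Atf4AKO, 0 after cold, 0 at RT and 0 for the difference of the cold responses, with 0.40 for Insr with cold in Atf4AKO, and 23 and 28 pathway genes called with cold in Atf4WT and Atf4AKO. Over all 13404 genes the block gave 4858 calls with cold in Atf4WT and 4129 in Atf4AKO, against 4273 and 3467 without it. Between genotypes after cold it gave 189 calls over all genes against 4 without it.

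Whole tissue gives no value per cell type. The lymphocyte level of the Atf4WT cold libraries lay above that of the other 9 libraries, so that covariate and the group cannot be told apart.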
